A study of Mus musculus with 4 samples.

Results

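10 genes of the AP-1 and immediate early response were followed through the mesenchymal stromal cells (MSC) of mouse intestine: *Fos*, *Fosb*, *Jun*, *Junb*, *Jund*, *Atf3*, *Egr1*, *Nr4a1*, *Klf2* and *Klf4*. They were listed by gene name, with earlier results of these data known, and are 10 of the 28692 genes in each library. Each was read as unique molecular identifiers (UMIs, the counted RNA molecules) by intestine, by library and by cell class. The lamina propria of small intestine and colon was taken from untreated female C57BL6/Nrj mice of 8 to 10 weeks, with 3 mice in each of 2 independent experiments, which gave 2 libraries per intestine. Live cells were sorted that lacked CD45, Ter119, CD31, BP3, EpCAM and L1CAM and carried Itgb1, so blood, endothelial, epithelial and glial cells were mostly removed, and the outer muscle had been taken off beforehand. All mice were unperturbed, and each library pools its animals, so that animals cannot be told apart within it. Digestion differed by organ: the small intestine was shaken, while the colon was stirred and had met DTT in its first step. Intestine and digestion therefore cannot be told apart here.

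Immediate early genes are transcribed within minutes of a stimulus, without new protein synthesis, and their products then switch on later genes. FOS and JUN proteins pair through leucine zippers into AP-1, ATF3 belongs to the same basic leucine zipper (bZIP) class, and EGR1, NR4A1, KLF2 and KLF4 are zinc finger or nuclear receptor type factors of the same early wave. In tissue that is cut, warmed and digested with enzymes these genes are also known to be induced during handling, so their level after dissociation is not that in the living animal.

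Cells were assigned to 7 classes by fixed marker lists that hold none of the 10 genes. The classes were PDGFRαhi fibroblasts (FB; PDGFRa-high in the plots), CD81+ FB, the remaining FB, smooth muscle cells (SMC), pericytes, endothelial cells that had escaped the sort, and interstitial cells of Cajal (ICC). Between 91.1 and 97.6% of kept cells fell into a class. The replicate 1 libraries kept 1804 small intestinal and 2381 colonic cells at medians of 6948 and 8809 UMIs, and the replicate 2 libraries kept 13212 and 11314 cells at medians of 2688 and 3854.5. As the gates required, the SMC list summed to between 35220 and 47320 CPM (UMIs of the gene scaled to a total of 1000000) in SMC, the endothelial list to 5119 and 7301 CPM in the 2 libraries with enough endothelial cells, and the FB list to 27.0 and 12.2 CPM in those same cells. *Gsn*, at 11330 and 12910 CPM in remaining FB of those libraries, stood at 14.5 and 14.6 CPM in their endothelial cells, from which the gate had removed cells with many FB UMIs. Small classes were thin. Small intestinal replicate 2 held 21 pericytes and 1 endothelial cell, and ICC were seen only in colon, with 15 and 37 cells. A class with under 20 cells in a library entered no test. Libraries shared at most 69 cell barcodes.

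By GENCODE vM21 on GRCm38, *Fos* lies at chr12:85473890-85477273 on the plus strand, *Fosb* at chr7:19302696-19310051 on the minus strand and *Atf3* at chr1:191170296-191218039 on the minus strand. *Jun* and *Klf4* share chromosome 4, at chr4:95049034-95052222 and chr4:55527143-55532466, both on the minus strand. *Junb*, *Jund* and *Klf2* share chromosome 8, at chr8:84974484-84978718 (minus), chr8:70698949-70700616 (plus) and chr8:72319033-72321656 (plus). *Nr4a1* lies at chr15:101254269-101274795 on the plus strand. RefSeq gave the 250 bases before the transcript start for 9 of the 10 genes, all but *Egr1*. The letters TGACG, the core of the cAMP response element that CREB and ATF proteins bind, were searched on both strands. They stood in 7 of those 9 windows (*Fos*, *Fosb*, *Junb*, *Atf3*, *Nr4a1*, *Klf2*, *Klf4*), against 17.8% of 32851 mouse promoter windows of that length. The windows of 4 genes follow, chosen after the matches were seen because each has the core nearest its start, 5′ to 3′ on the gene's strand, with TGACG or its reverse complement CGTCA in capitals. They are chr12:85473640-85473889 for *Fos*, chr7:19310046-19310295 for *Fosb*, chr1:191183334-191183583 for *Atf3* and chr15:101266596-101266845 for *Nr4a1*, on GRCm38.p6.
Fos: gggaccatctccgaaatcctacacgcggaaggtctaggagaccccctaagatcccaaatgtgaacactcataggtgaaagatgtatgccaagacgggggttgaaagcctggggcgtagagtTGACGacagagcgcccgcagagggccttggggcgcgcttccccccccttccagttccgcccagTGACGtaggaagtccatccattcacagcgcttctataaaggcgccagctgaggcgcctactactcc
Fosb: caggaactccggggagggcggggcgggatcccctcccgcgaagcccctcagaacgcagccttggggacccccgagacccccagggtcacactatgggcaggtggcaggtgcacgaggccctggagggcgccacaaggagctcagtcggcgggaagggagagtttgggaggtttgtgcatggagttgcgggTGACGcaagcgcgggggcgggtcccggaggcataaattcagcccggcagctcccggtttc
Atf3: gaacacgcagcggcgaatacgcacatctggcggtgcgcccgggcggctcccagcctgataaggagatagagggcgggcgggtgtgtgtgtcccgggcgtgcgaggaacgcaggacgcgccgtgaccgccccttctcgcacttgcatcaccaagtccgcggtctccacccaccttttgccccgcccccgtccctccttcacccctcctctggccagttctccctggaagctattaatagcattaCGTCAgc
Nr4a1: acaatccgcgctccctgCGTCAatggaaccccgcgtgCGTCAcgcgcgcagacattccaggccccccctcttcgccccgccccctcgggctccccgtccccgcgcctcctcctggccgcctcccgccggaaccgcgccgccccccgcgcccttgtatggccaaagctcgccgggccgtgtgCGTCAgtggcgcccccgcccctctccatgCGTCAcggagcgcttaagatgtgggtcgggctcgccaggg

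Counted from the start, the core begins at -129 and -66 in *Fos*, at -60 in *Fosb*, at -7 in *Atf3*, and at -233, -213, -69 and -40 in *Nr4a1*. The RefSeq start used for *Fosb*, *Atf3*, *Nr4a1* and *Klf2* lies inside the GENCODE gene, so these windows hold the start of 1 transcript only. The window used for *Jund*, chr8:70697489-70697738, ends well before the GENCODE gene start at 70698949. Its lack of matches and its share of G and C may thus not describe the promoter of that gene. The palindrome TGACGTCA, which contains that core, was in none of the 9 windows and in 1.55% of all windows. TGANTCA, the AP-1 element, was likewise in 0 of 9 and in 6.75% of all. The CArG box that serum response factor binds was in 0 of 9 and in 1.47% of all windows, and says nothing of sequence beyond 250 bases. The EGR element GCGNGGGCG was in 4 of 9 (*Fosb*, *Nr4a1*, *Klf2*, *Klf4*) and in 4.7% of all, and the GC box GGGCGG, which can overlap it, in 7 of 9 and in 32.7% of all. MEF2 sites were matched in *Jun*, *Atf3* and *Klf2*, against 2.92% of all windows, CCAAT in *Jun* and *Junb*, against 33.8%, and CCACACCC in none, against 3.2%. A match is a run of letters, not a bound site, and the share of G and C ran from 47.6% (*Jund*) to 74.4% (*Nr4a1*) in these windows, against a median of 52.4% over all windows.

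The 10 genes together were a sizeable share of the RNA counted. In all FB they made up 2.18 and 3% of UMIs in replicates 1 and 2 of small intestine, against 3.56 and 4.49% in those of colon, so that both colonic libraries lay above both small intestinal ones. The share in pericytes of colon was 5.84 and 4.39%, and that in ICC 0.891 and 1.41%, the lowest of the classes in their colonic libraries. *Fos* had more UMIs than any other gene in the FB of colon replicate 1 and ranked 18 in those of small intestine replicate 1. UMIs mark 1 end of a molecule and do not scale with gene length, but capture can differ by gene, so levels below are compared within a gene. All levels are CPM of the UMIs summed over a class in a library, given in the order small intestine 1, small intestine 2, colon 1, colon 2.

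**Figure D1:**
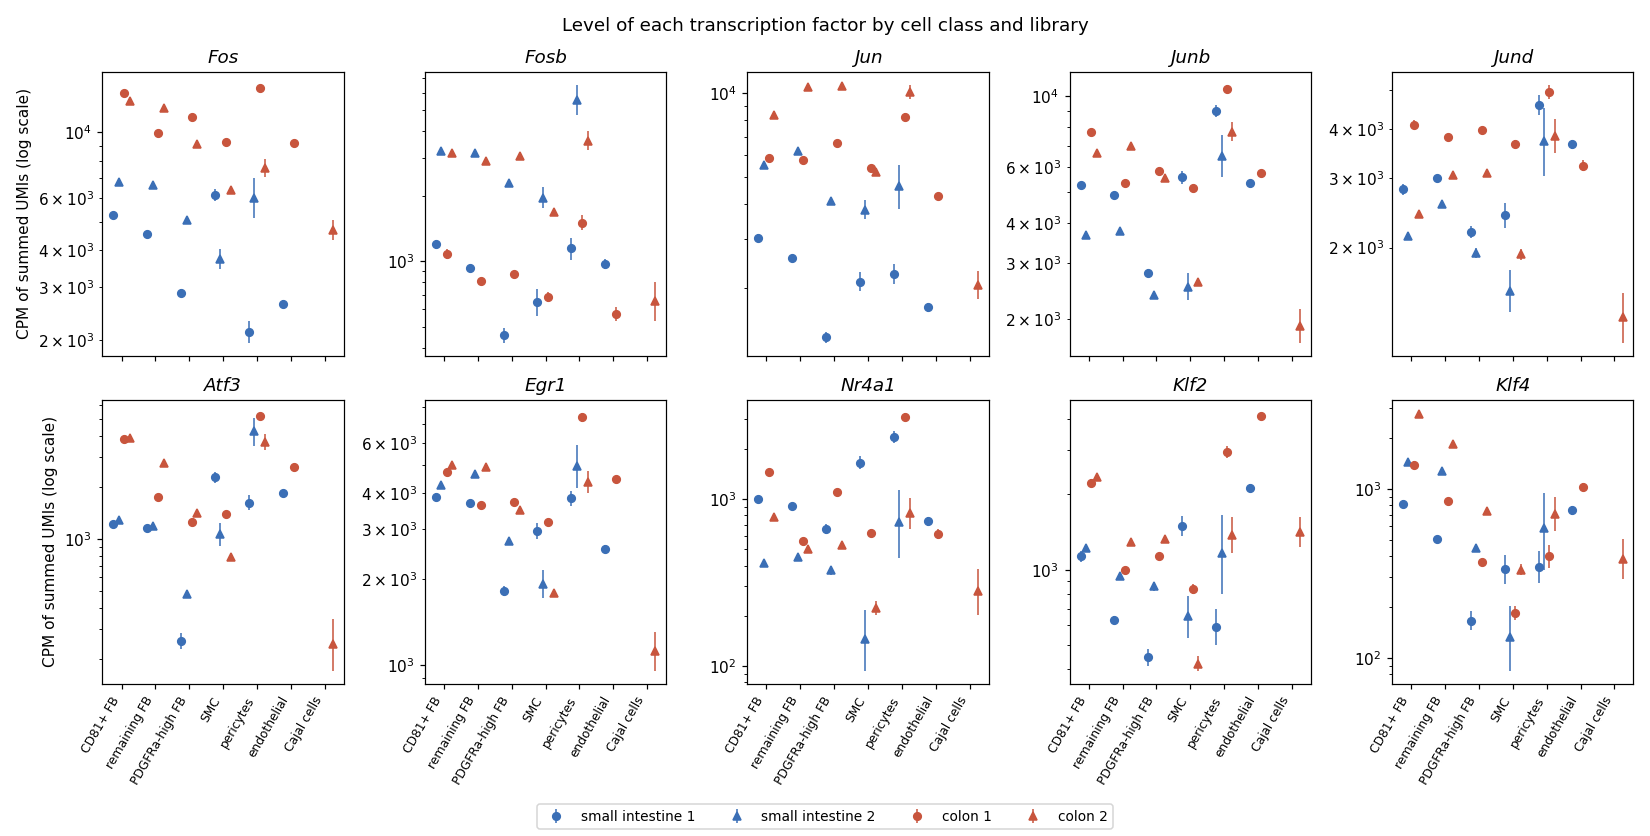
CPM of each gene (log axis) by cell class, with circles for replicate 1 and triangles for replicate 2, blue for small intestine and red for colon, and bars for the 95% exact Poisson interval, which covers counting error only. Pericytes sit highest for *Junb*, *Jund* and *Nr4a1* in all 4 libraries, endothelial cells for *Klf2* in the 2 libraries that hold them, and CD81+ FB for *Klf4* in all 4.

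*Fos* codes for the partner that makes AP-1 a strong activator. It stood at 4411, 6558, 10740 and 11355 CPM in all FB, with both colonic libraries above both small intestinal ones. In SMC it was 6133, 3743, 9271 and 6374 CPM, and in pericytes 2131, 6025, 14104 and 7598 CPM. Pericytes thus ran from the lowest to the highest value of the gene. It was 2644 and 9181 CPM in endothelial cells of small intestine 1 and colon 1, and 4677 CPM in the 37 ICC of colon 2. Ordered by the mean log2 difference from the remaining FB of the same library, CD81+ FB came first (0.19 ± 0.19 SD, n = 4, higher in 4 of 4 libraries), then remaining FB, PDGFRαhi FB, pericytes, SMC, endothelial cells and ICC. Only the first step of that order exceeded its SD between libraries; the others lay within it, or rest on 1 library for ICC.

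*Fosb*, whose product is a close relative of FOS, followed the replicate and not the intestine. In all FB it stood at 898 and 858 CPM in the replicate 1 libraries of small intestine and colon and at 3120 and 2992 CPM in the replicate 2 libraries. The intestines overlapped fully and the replicate numbers did not. Pericytes had 1148, 5587, 1510 and 3609 CPM, the highest class in 3 of 4 libraries (0.58 ± 0.32 log2 above the remaining FB, 4 of 4 libraries), and SMC were low at 650, 1969, 685 and 1693 CPM (0 of 4 libraries above the remaining FB). Only CD81+ FB over remaining FB (0.23 ± 0.19) exceeded its SD among neighbours in the order pericytes, CD81+ FB, remaining FB, endothelial cells, PDGFRαhi FB, SMC and ICC.

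Among the JUN proteins, which can pair with each other as well as with FOS, *Jun* stood at 2455, 5974, 6123 and 10224 CPM in all FB. Small intestine 2 and colon 1 were nearly level, so the intestines were apart by a narrow margin. In SMC it was 2114, 3835, 5410 and 5211 CPM, below the remaining FB in 4 of 4 libraries. Remaining FB, pericytes, CD81+ FB and PDGFRαhi FB followed each other in that order with steps inside the SD. SMC stood lower than endothelial cells in the mean over their libraries, but above them by 0.32 ± 0.02 log2 in the 2 libraries that hold both. Endothelial cells were below remaining FB in both their libraries (-0.51 ± 0.10 log2, n = 2), and ICC, at 2057 CPM in colon 2, came last.

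*Junb*, often a brake on JUN, had its highest CPM in pericytes, though the test below did not call it there. It stood at 8998, 6500, 10539 and 7741 CPM in pericytes, above every other class in all 4 libraries, against 4648, 3667, 5738 and 6531 CPM in all FB. The step from pericytes to CD81+ FB (0.57 ± 0.28 log2) exceeded its SD, as did the small one from endothelial cells to remaining FB (0.11 ± 0.01, n = 2). ICC had 1909 CPM in colon 2. SMC split by replicate, with 5570 and 5147 CPM in replicate 1 and 2530 and 2619 CPM in replicate 2, the same in both intestines.

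*Jund*, the JUN gene that resting cells already express, varied least among FB libraries of these 10 genes apart from *Egr1*, at 2847, 2469, 3899 and 2960 CPM. Pericytes again led in all 4 libraries with 4596, 3725, 4951 and 3828 CPM (0.46 ± 0.13 log2 above the remaining FB), a step beyond its SD over the next class, endothelial cells. The classes that followed, remaining FB, CD81+ FB, PDGFRαhi FB and SMC, were within their SD of their neighbours. SMC were below remaining FB in 4 of 4 libraries, at 2415, 1555, 3651 and 1922 CPM.

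*Atf3*, a stress-induced bZIP factor that represses many targets, differed between FB classes. PDGFRαhi FB had 256, 482, 1263 and 1423 CPM, CD81+ FB 1225, 1293, 3832 and 3878 CPM, and remaining FB 1159, 1199, 1769 and 2767 CPM. PDGFRαhi FB were thus the lowest FB in every library, and in each of the 3 classes both colonic values lay above both small intestinal ones. Pericytes were at 1627, 4236, 5202 and 3676 CPM, above remaining FB in 4 of 4 libraries (1.06 ± 0.72 log2). Endothelial cells, at 1863 and 2639 CPM, were above remaining FB in both libraries (0.63 ± 0.07). The 37 ICC of colon 2 had 247 CPM and the 15 of colon 1 had 33.3 CPM. No neighbouring classes in its order differed beyond their SD.

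*Egr1*, the zinc finger factor downstream of ERK and serum response factor, was the steadiest in FB, at 3432, 4453, 3752 and 4552 CPM, with the intestines overlapping. Pericytes (3830, 4966, 7383 and 4378 CPM) and CD81+ FB (3891, 4258, 4737 and 5028 CPM) each held the highest value in 2 libraries. SMC, at 2951, 1926, 3173 and 1780 CPM, were below remaining FB in 4 of 4. ICC came last at 1120 CPM in colon 2. In its order, endothelial cells over PDGFRαhi FB was the only step beyond the SD (0.37 ± 0.15 log2, n = 2).

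*Nr4a1*, an orphan nuclear receptor, again led in pericytes in all 4 libraries, at 2340, 730, 3109 and 826 CPM, against 882, 438, 847 and 558 CPM in all FB. It moved with the replicate, lower in replicate 2 in both intestines and both classes. The steps from pericytes to CD81+ FB (0.80 ± 0.51 log2) and from CD81+ to PDGFRαhi FB (0.42 ± 0.20) exceeded their SD. SMC ran from 146 CPM (small intestine 2) to 1655 CPM (small intestine 1), over 10 times apart between libraries of 1 intestine.

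*Klf2*, the flow-induced factor that keeps endothelium quiescent, stood at 2120 and 4114 CPM in endothelial cells, above every other class of both their libraries. That was 1.88 ± 0.21 log2 above remaining FB (n = 2), and the step to CD81+ FB, the next class, exceeded its SD (0.89 ± 0.01). CD81+ FB had 1131, 1224, 2226 and 2337 CPM against 632, 943, 1000 and 1292 CPM in remaining FB. Here too colon lay above small intestine in both classes. ICC had 678 and 1416 CPM, against 1157 and 1471 CPM in all FB of the same colonic libraries.

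*Klf4*, a factor linked to growth arrest and to loss of the muscle phenotype in vascular SMC, was highest in CD81+ FB of every library, at 814, 1448, 1394 and 2777 CPM. Remaining FB had 504, 1273, 844 and 1837 CPM and PDGFRαhi FB 167, 449, 371 and 740 CPM. SMC had 335, 134, 185 and 333 CPM and pericytes 346, 584, 400 and 712 CPM, all below remaining FB of their library. It had the clearest order of the 10 genes: the steps from CD81+ FB to endothelial cells, to remaining FB and to pericytes all exceeded their SD (0.28 ± 0.23, 0.42 ± 0.20 and 1.01 ± 0.35 log2), and those further down did not.

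Classes were then compared within libraries by edgeR's quasi-likelihood test on the summed UMIs, with the library as a block, and calls needed an adjusted p (Benjamini-Hochberg, over every gene tested) below 0.05. In SMC against FB, 5 of the 10 genes were called lower. All 10 estimates were below 0, with a median log2 change of -0.63 against -0.04 over all genes, and 16.2% of all genes were called lower (27.4% in either direction). In small intestine 1 the 10 genes summed to 2.56% of UMIs in SMC and 2.18% in FB, the only library where SMC had more. *Klf4* fell most, by 2.11 ± 0.46 (SE) on the log2 scale (edgeR, adjusted p = 0.0261), then *Egr1* by 0.91 ± 0.24 (0.0196), *Fosb* by 0.73 ± 0.16 (0.00425), *Jun* by 0.66 ± 0.17 (0.0119) and *Jund* by 0.56 ± 0.16 (0.0235). *Fos*, *Junb*, *Atf3*, *Nr4a1* and *Klf2* had estimates from -0.71 to -0.41 and were not called. The count rests on which libraries enter: without small intestine replicate 1 it was 9, without small intestine replicate 2 it was 2 and without colon replicate 2 it was 1, while *Fosb* remained called in all 4 leave-outs. *Klf4* was not called without colon replicate 1 (adjusted p = 0.213) or 2 (0.139) by edgeR. Nor was it with no low-count filter (0.0697) or with at most 5% mitochondrial UMIs (0.0776).

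The other lists were counted beside the same 16.2% of all genes lower and 11.2% higher. Of the feedback regulators, which shut the early response down, 15 of 27 tested were called lower and 1 higher, led by *Dusp6* (-3.34), *Spry4* (-2.91) and *Spry2* (-1.98 log2), brakes on ERK signalling. Among other immediate early transcription factors 10 of 23 were lower and 1 higher, with *Bhlhe40* at -2.75, *Egr2* at -1.69 and *Ier5* at -1.55. Other bZIP genes were lower in 6 of 23, with *Batf* at -2.67 and *Jdp2* at -1.30, and heat shock genes in 8 of 16, with *Dnajb1* at -2.53, *Hspa5* at -1.42 and *Bag3* at -1.12. Serum response factor and the upstream kinases went otherwise, with 2 higher and 3 lower of 24: *Mef2c* at 3.13, *Srf* itself at 1.13 and *Elk4* at -0.91. Of the secreted products 12 of 23 were lower and 1 higher. *Lif* had no UMI in SMC, at least 7.56-fold below FB (floor of 3 UMIs over the group), *Mmp3* had 3 UMIs, 79.3-fold below FB (counting interval 27.1 to 385), and *Has1* was at -6.71 log2. SMC carried 2773 to 4115 CPM of the FB list, against 16300 to 29300 CPM in FB, and the part of that RNA in these values was not tested.

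In pericytes against FB 3 of the 10 genes were called, where 22.5% of all genes were called either way. *Atf3* rose by 0.83 ± 0.28 log2 over FB (adjusted p = 0.0162, edgeR) and *Nr4a1* by 0.89 ± 0.28 (0.0108), while *Klf4* fell by 1.2 ± 0.28 (0.000191). These 2 higher and 1 lower calls stood beside 8.58% higher and 13.9% lower over all genes, where the median of all genes was -0.18. *Junb*, highest in pericytes in every library by CPM, had an estimate of 0.41 ± 0.28 after scaling and was not called (0.342), nor was *Fos* at -0.67 ± 0.28 (0.0724). Without colon replicate 1 neither *Atf3* (0.206) nor *Nr4a1* (0.298) was called, and *Nr4a1* was not without small intestine replicate 1 (0.146). With no low-count filter *Atf3* (0.123) and *Nr4a1* (0.0913) were not called either. *Atf3* was also not called with a minimum of 1000 genes per cell (0.172) or under a stricter gate (0.0654). *Klf4* was called in all 4 leave-outs.

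The partners of the family also went both ways in pericytes. Other bZIP genes were higher in 6 and lower in 3 of 23, with *Crem* at 2.29, *Batf3* at 2.00 and *Maf* at -3.21 log2. Other immediate early transcription factors were higher in 7 and lower in 2 of 23, led by *Id1* at 2.37, *Nr4a3*, the sister of *Nr4a1*, at 1.74 and *Myc* at 1.49. Feedback regulators were higher in 9 and lower in 4 of 26, with *Dusp2* at 2.58, *Sik1* at 2.44 and *Gadd45a* at -2.85. Of serum response factor and kinases 3 of 24 were higher (*Mef2c* 4.46, *Mef2a* 1.66, *Mkl1* 1.26) and none lower. Heat shock genes were higher in 1 and lower in 5 of 16 (*Hspb8* -3.75, *Hspe1* -1.35, *Hspa1b* -1.28), and secreted products higher in 3 and lower in 12 of 23 (*Has1* -6.29, *Ereg* -5.59, and *Mmp3* with no UMI, at least 13.7-fold lower). Pericytes carried 4236 to 15830 CPM of the SMC list, highest in colon 1, and its part in these values was not tested.

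Endothelial cells were compared in small intestine 1 and colon 1 only, since those of replicate 2 held 1 and 13 endothelial cells. *Klf2* rose by 1.61 ± 0.19 log2 (adjusted p = 0.00178, edgeR) and *Jun* fell by 0.64 ± 0.18 (0.0400), beside 14.6% of all genes higher and 16.9% lower, 31.4% in all. *Fos* (-0.60 ± 0.19, 0.0601) and *Atf3* (0.60 ± 0.20, 0.0671) were not called. Of the other immediate early transcription factors 9 of 25 were higher and 4 lower, with *Egr4* at 4.28 and *Egr3* at 3.35, and *Klf5* with 1 UMI (10.9-fold lower, counting interval 1.91 to 433). Feedback regulators were higher in 9 and lower in 5 of 27 (*Dusp2* 6.40, *Dusp10* -3.37, *Dusp5* 2.98), and serum response factor and kinases higher in 8 of 25 (*Mef2c* 4.6, *Elk3* 4.48, *Rps6ka1* 4.03). The bZIP genes were higher in 5 and lower in 4 of 23 (*Batf* -3.42, *Atf5* -2.20). Heat shock genes were lower in 6 of 16 (*Hspb8* -3.28, *Hspa1a* -2.52, *Hspa1b* -1.80). Of the secreted products 3 of 23 were higher and 11 lower, and *Has1*, *Mmp3* and *Areg* had no UMI, at least 374-fold, 56.4-fold and 25.4-fold below FB.

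ICC, the pacemaker cells of the gut wall, had at least 20 cells in colon 2 only, so no test was made. In that library *Jun* stood at 2057 CPM against 10224 CPM in FB, *Atf3* at 247 against 2581, *Egr1* at 1120 against 4552 and *Junb* at 1909 against 6531. The exact Poisson interval of *Atf3* in ICC ran from 171.7 to 342.9 CPM, well below the FB value. *Klf2* was close, at 1416 against 1471 CPM. The SMC list summed to 2909 CPM in these ICC and to 12300 CPM in the 15 of colon 1, where the gene levels were lower still for *Fos* (3857 CPM), *Jun* (478 CPM) and *Egr1* (606 CPM).

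Within the FB, PDGFRαhi FB, which in the intestine lie beneath the epithelium, stood lowest for several of the genes and CD81+ FB highest. Against remaining FB, all 10 estimates in PDGFRαhi FB were below 0 (median -0.53 log2 against 0.00 over all genes). These estimates pool both intestines, whose difference is tested further below. By CPM, *Atf3* and *Klf4* were below remaining FB in 4 of 4 libraries, and *Fos*, *Junb* and *Egr1* in 3. *Fosb*, *Jun*, *Jund*, *Nr4a1* and *Klf2* were below in 2 and above in 2. *Klf4* fell by 1.60 ± 0.14 (adjusted p = 0.000383, edgeR), *Atf3* by 1.43 ± 0.33 (0.0288) and *Egr1* by 0.77 ± 0.22 (0.0400), which made 3 calls where 15.4% of all genes were lower and 27.7% called either way. Without small intestine replicate 2 or without colon replicate 2 only *Klf4* was called, and *Egr1* was not called without small intestine replicate 1 either (0.150). In CD81+ FB *Klf2* rose by 0.93 ± 0.12 (0.00073), *Klf4* by 0.67 ± 0.10 (0.00155) and *Fosb* by 0.35 ± 0.10 (0.0369), beside 6.66% of all genes higher and 13.1% called either way. *Fosb* was not called without small intestine replicate 1 (0.144), without colon replicate 1 (0.176) or after thinning each cell to 1000 UMIs (0.187). The KLF genes were called in every leave-out. The CD81+ gate runs through dense data: 8.65 to 10.5% of all kept cells lay within 20% of its threshold, against 0.887 to 6.14% for the PDGFRαhi gate.

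The lists around the family differed between the FB classes. In PDGFRαhi FB the secreted products were lower in 12 of 23 and higher in 1, with *Has1* at -4.97, *Il6* at -3.89 and *Plau*, the urokinase, at 3.84 log2. Feedback regulators were higher in 4 and lower in 6 of 27 (*Dusp2* -2.32, *Spry4* 1.95, *Gadd45a* 1.07), and other early factors higher in 3 and lower in 4 of 23 (*Id1* 2.50, *Id2* 1.30, *Klf6* -1.29). The bZIP genes were higher in 2 and lower in 6 of 23 (*Maf* -3.73, *Batf* 1.72, *Fosl1* -1.44), heat shock genes 2 and 4 of 16 (*Hspb8* -3.79, *Hspb1* 1.40, *Dnajb4* -1.11), and serum response factor and kinases 3 and 3 of 24 (*Map2k6* -1.18, *Mapk14* 0.68, *Srf* 0.61). In CD81+ FB other early factors were higher in 5 and lower in 1 of 23 (*Myc* 1.21, *Bhlhe40* 0.78, *Nfkbiz* 0.71). Feedback regulators there were higher in 1 and lower in 4 of 26 (*Spry1* -1.80, *Rgs2* -1.47, *Spry4* -1.19), secreted products 6 and 5 of 23 (*Ereg* -1.76, *Areg* -1.67, *Ccl7* 1.58), bZIP genes 5 and 2 of 23 (*Batf* -1.99, *Batf3* -1.56, *Maff* 0.89) and heat shock genes 3 and 2 of 16 (*Hspb8* 1.19, *Hspa1a* -0.81, *Hsph1* -0.68). No gene of the kinase list was called in CD81+ FB by edgeR.

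The study asks how stromal cells of small intestine and colon differ, and the 10 genes were therefore compared between the intestines within each class, with the study's limits of an adjusted p under 0.05 and a log2 change beyond 1.5. No gene was called in any class by edgeR's quasi-likelihood test on 2 against 2 libraries, without the replicate number as a block. With that block some were called in PDGFRαhi FB and pericytes, as given in the closing section on processing. The estimates without it leaned one way. In all FB 9 of 10 were above 0 (median 0.46 log2 against 0.00 over all genes), 2 had an unadjusted p under 0.05, as had 1610 of all 13820 genes, and 0.492% of all genes were called. *Fos* was at 0.94 ± 0.32 (edgeR, adjusted p = 0.387), *Atf3* at 0.92 ± 0.33 (0.416) and *Jun* at 0.90 ± 0.57 (0.711), while *Fosb*, *Egr1* and *Nr4a1* were near 0 (-0.10, 0.01 and 0.00).

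Between libraries of the same replicate number, *Fos* in all FB was 2.44 times as high in colon in replicate 1 and 1.73 times in replicate 2. *Jun* was 2.49 and 1.71 times as high, *Atf3* 1.69 and 2.23 times, *Klf2* 1.70 and 1.51 times and *Junb* 1.23 and 1.78 times. Colon was higher for 8 of 10 genes in both replicate numbers, as it was for 41.2% of the 2958 genes at 50 CPM or more. Both colonic libraries were above both small intestinal ones for 6 (*Fos*, *Jun*, *Junb*, *Jund*, *Atf3*, *Klf2*), and for 21.6% of those 2958 genes. An exact permutation test of 2 against 2 libraries cannot give a p below 0.3333. Beside these, the heat shock list summed to 8514, 7247, 7008 and 16230 CPM in FB, high in colon 2 only, and its part in the colonic values was not tested.

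**Figure D2:**
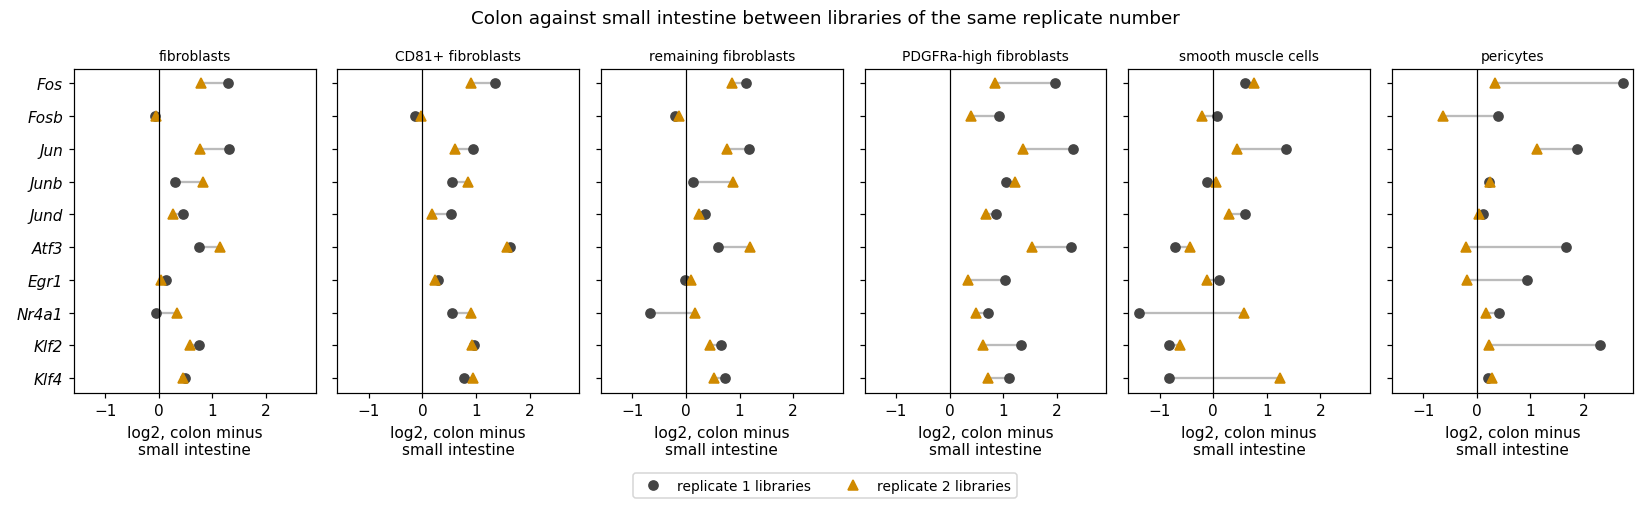
log2 difference, colon minus small intestine, between libraries of replicate 1 (grey circles) and of replicate 2 (orange triangles), for each gene and class. In PDGFRα-high FB all 20 marks lie above 0, while in SMC 5 of the 10 genes in replicate 1 and 6 in replicate 2 do.

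PDGFRαhi FB leaned furthest. All 10 genes were higher in colon in both replicate numbers, as were 28.3% of 3304 genes at 50 CPM or more. Of the 10, 7 had both colonic libraries above both small intestinal ones (*Fos*, *Jun*, *Junb*, *Jund*, *Atf3*, *Egr1*, *Klf2*), where 15.3% of those 3304 genes did and 26.2% were apart the other way. *Fos* stood at 2865, 5067, 11250 and 9128 CPM and *Jun* at 1335, 4122, 6627 and 10612 CPM. *Junb* had 2796 and 2381 CPM in small intestine against 5835 and 5549 CPM in colon, and *Jund* at 2186 and 1938 against 3973 and 3094 CPM, with little spread inside each intestine for *Junb*. By edgeR *Atf3* was at 2.01 ± 0.41 log2 (adjusted p = 0.102), *Jun* at 1.82 ± 0.64 (0.325), *Fos* at 1.5 ± 0.39 (0.171) and *Junb* at 1.28 ± 0.28 (0.119). An unadjusted p under 0.05 was reached by 6 of 10 and by 1501 of all 11508 genes, and 1.49% of all genes were called, 0.791% higher and 0.704% lower. DESeq2 called 2 of them, *Atf3* at 1.99 (adjusted p = 0.000224) and *Jun* at 1.80 (0.0388), beside 543 called over all genes.

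Around them, *Batf3*, a bZIP partner of JUN proteins, was called higher in colonic PDGFRαhi FB at 4.95 ± 0.58 log2 (adjusted p = 0.0359, edgeR), at 0.692, 1.11, 20.5 and 33.8 CPM. *Egr2* was at 2.05 ± 0.28 (0.0495), *Plau* at 4.98 ± 0.53 (0.0294) and *Ptgs2*, the inducible prostaglandin synthase, at 2.33 ± 0.28 (0.0373). Those were 1 of 23 bZIP genes, 1 of 23 other early factors and 2 of 22 secreted products, and none of the feedback, heat shock or kinase genes was called (26, 16 and 25 tested). In the same cells the SMC list summed to 10790 and 7771 CPM in small intestine and 5715 and 3153 CPM in colon, and the pericyte list to 1272 and 1088 against 238 and 228 CPM. The part of these lists in the result was not tested.

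No gene was called in the other classes either. In CD81+ FB 9 of 10 estimates were above 0, with *Atf3* at 1.47 ± 0.29 (adjusted p = 0.153, edgeR; 3.13 and 3.0 times as high in replicates 1 and 2) and *Klf2* at 0.81 ± 0.29 (0.503); 3 had an unadjusted p under 0.05, as had 888 of all 10641 genes, and 0.451% of all genes were called, 0.15% higher and 0.301% lower. In remaining FB 7 were above 0 and 1 passed an unadjusted p under 0.05, as did 1305 of all 13019 genes, beside 0.269% called (0.146% higher). SMC were even, with 5 above and 5 below 0, 1 unadjusted (*Jun*, 0.90 ± 0.36) against 621 of all 9192 genes, and 0.141% called (0.0435% higher). In pericytes 9 were above 0 and 3 passed unadjusted (*Fos* 1.5 ± 0.52, *Jun* 1.49 ± 0.44, *Klf2* 1.41 ± 0.51) against 155 of all 3171 genes, beside 0.0631% called. Those pericyte values were uneven: *Fos* was 6.62 times as high in colon in replicate 1 and 1.26 times in replicate 2, and *Klf2* 5.0 and 1.18 times. DESeq2 called 0 of 10 in each of these 4 classes and in all FB. Among listed genes *Ctgf* (3.69) and *Mmp3* (-2.82) were called in CD81+ FB and *Ccl2* (-3.82) in pericytes, and none in remaining FB, SMC or all FB.

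Whether the colonic shift was larger in PDGFRαhi FB than in remaining FB was tested by the class by intestine term, within libraries. The term rests on 2 libraries per intestine, and edgeR draws part of its variance estimate from the other genes. It was larger for 7 of the 10 genes, where 7.23% of all genes were called higher and 12.2% either way, and all 10 estimates were above 0 (median 0.84 log2 against 0.00). *Jun* differed by 1.06 ± 0.14 (adjusted p = 8.53e-06, edgeR), *Fosb* by 1.02 ± 0.17 (0.000459), *Egr1* by 0.85 ± 0.17 (0.00254), *Junb* by 0.83 ± 0.14 (0.000391) and *Jund* by 0.66 ± 0.12 (0.000622). *Klf2* differed by 0.61 ± 0.15 (0.00574) and *Klf4* by 0.48 ± 0.14 (0.0198). *Atf3* had the largest estimate, 1.19 ± 0.39, and was not called (0.206), as were not *Nr4a1* (1.06 ± 0.32, 0.144) and *Fos* (0.61 ± 0.18, 0.0544). In levels, PDGFRαhi FB had less *Jun* than remaining FB in both small intestinal libraries (1335 against 2569 and 4122 against 6226 CPM) and slightly more in both colonic ones (6627 against 5792 and 10612 against 10561 CPM). *Jun*, *Junb* and *Jund* were called under every alternative tried. With suspected doublets kept, only those 3 were; *Klf2* and *Klf4* were also not called after thinning each cell to 1000 UMIs, and *Egr1*, *Klf2* and *Klf4* not without small intestine replicate 1. *Klf4* was not called without colon replicate 1 or 2 either, and 5 to 9 of the 10 genes were called when a library was left out.

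**Figure D3:**
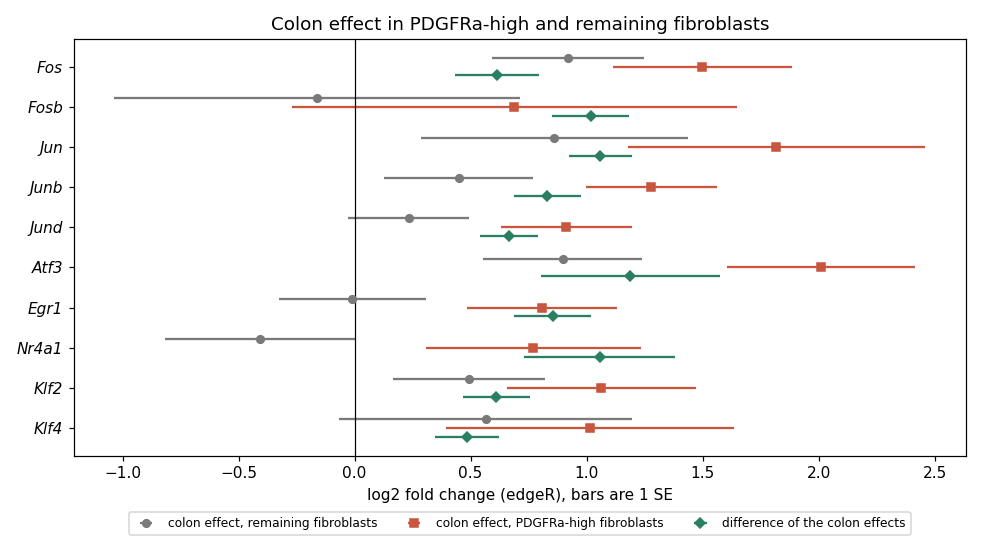
log2 change of colon over small intestine by edgeR in remaining FB (grey circles) and PDGFRα-high FB (red squares), and the difference of both effects (green diamonds), with bars of 1 SE. The difference lies above 0 for all 10 genes, and its SE runs from 0.12 (*Jund*) to 0.39 (*Atf3*).

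Many genes around the family shared this pattern. Of the feedback regulators 14 of 28 had a larger colonic shift in PDGFRαhi FB and 4 a smaller one, with *Rgs2* at 3.57 ± 0.22 and *Tnfaip3* at 2.48 ± 0.22 log2. *Rgs1*, at 0, 0.371, 12.8 and 46.0 CPM in PDGFRαhi FB, had 1 UMI in the small intestinal libraries together, so its fitted change is not given. Of other early factors 11 of 25 were higher and 1 lower (*Ier5* 1.77, *Nfkbiz* 1.67, *Id1* -1.47), and of bZIP genes 6 of 23 were higher (*Batf3* 5.15, *Maff* 2.05, *Maf* 1.58). *Areg* and *Ereg*, ligands of the EGF receptor, led the secreted products at 3.97 ± 0.27 and 3.96 ± 0.18, followed by *Mmp3* at 2.68, with 9 of 23 called higher and none lower. *Ereg* stood at 44.3, 107, 504 and 706 CPM in PDGFRαhi FB and at 278, 440, 192 and 232 CPM in remaining FB, opposite in direction. Heat shock genes were higher in 8 of 16 (*Hspb8* 2.35, *Dnajb1* 1.78, *Dnaja1* 0.91). Serum response factor and kinases gave 2 of 25 (*Mef2c* 0.99, *Map2k3* 0.68).

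The same test of SMC against all FB called 0 of 10 by edgeR, with 0 at an unadjusted p under 0.05 and 0 by DESeq2, where 1.38% of all genes were called. Its SE ran from 0.22 log2 (*Fosb*) to 1.28 (*Nr4a1*), wider for most genes than in the FB test, and the median of all genes was 0.12. Single libraries turned these values: without colon replicate 1 *Atf3* was at -2.07 and *Klf2* at -1.95 and both were called, and *Klf4* was called at 1.39 without small intestine replicate 1 and at -1.38 without small intestine replicate 2. Among listed genes *Hspb1* (-3.36) and *Ctgf* (-2.64) had a smaller and *Areg* (2.63) a larger colonic shift in SMC.

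Replicates 1 and 2 were also compared. In FB, with a term for intestine, *Fosb* was 1.86 ± 0.19 log2 higher in replicate 2 (adjusted p = 0.00169, edgeR), *Klf4* 1.34 ± 0.17 (0.00303) and *Jun* 1.07 ± 0.23 (0.0161), while *Nr4a1* was 0.75 lower (-0.75 ± 0.19, 0.0283). These 4 calls stood beside 28.7% of all genes, 14.8% higher and 14% lower. *Junb* (-0.02 ± 0.25) and *Jund* (-0.24 ± 0.19) were not called. Of other bZIP genes 9 of 23 were higher and 2 lower (*Mafg* 0.98, *Creb5* 0.92, *Nfe2l1* 0.92), and of feedback regulators 8 of 28 higher and 2 lower (*Rgs2* 1.51, *Gadd45b* 1.39, *Zfp36* -1.39). Other early factors were higher in 6 of 25 (*Klf6* 1.08, *Hes1* 0.95, *Klf13* 0.80), kinases in 6 with 2 lower of 25 (*Mapkapk2* 0.96, *Mapk8* 0.79, *Elk4* 0.68), secreted products 3 and 3 of 23 (*Plau* -1.20, *Thbs1* 0.79, *Adamts1* 0.72) and heat shock genes 1 and 1 of 16 (*Dnajb4* 0.59, *Hsf1* -1.11). The replicate numbers also differ in Cell Ranger version, in depth and in cell number, and these cannot be told apart. Without the term for intestine none of the 4 was called.

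Single cells of a class differed widely. After each cell was thinned to 1000 UMIs, the median cell of remaining FB held 22, 30, 30 and 47 UMIs of the 10 genes, and in colon 2 the 5th and 95th percentiles were 3 and 91. The variance was 8.63, 8.63, 20.9 and 15.7 times the mean, where a Poisson count has a variance equal to its mean. Between 34.9 and 60.9% of remaining FB showed at least 8 of the 10 genes and 3.48 to 16.8% at most 2. PDGFRαhi FB had medians of 9 and 16 UMIs in small intestine and 31.5 and 37 in colon, with 25 and 18.2% of cells at no more than 2 genes in the former and 14.6 and 11.4% in the latter. Pericytes of colon 1 had the highest median, 64, and ICC the lowest, 4 over 15 cells in colon 1 and 7 over 37 in colon 2. Colonic classes thus held cells at both ends: the 5th percentile of colonic PDGFRαhi FB was 1 UMI, as in small intestine, and the 95th was 85 and 82.1 against 43 and 57.

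**Figure D4:**
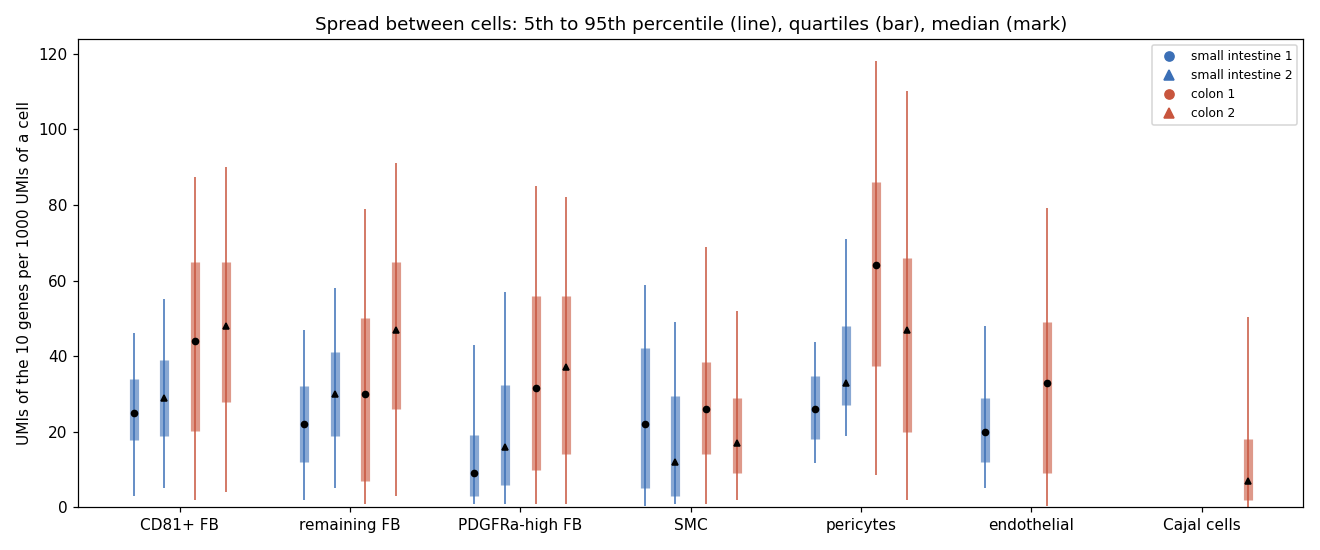
UMIs of the 10 genes per 1000 UMIs of a cell, by class and library, with the median (mark), the quartiles (bar) and the 5th to 95th percentile (line); blue is small intestine and red is colon. The upper ends of the colonic bars lie well above those of small intestine in the FB classes and pericytes, while the lower ends of the colonic lines lie between 0 and 8.6.

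Across remaining FB cells, the 10 genes were correlated to unequal degrees. *Fos* with *Jun* had the highest Pearson r (median of the 4 libraries 0.54, range 0.45 to 0.66), then *Junb* with *Egr1* (0.50) and *Jun* with *Junb* (0.48), and *Nr4a1* with *Klf2* the lowest (0.07). These are descriptions over thinned cells that share a library.

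Remaining FB were also divided within each library into 4 bins of near equal cell number by their UMIs of the 10 genes, and other genes were summed over the rest of the UMIs. Feedback regulators took 52.7 UMIs per 10000 in the lowest and 232 in the highest bin of small intestine 1, 71.2 and 214 in small intestine 2, 26.0 and 342 in colon 1, and 64.6 and 324 in colon 2. For other early factors the pairs of values were 31.8 and 110, 40.8 and 119, 27.8 and 170, and 41.7 and 194 in the same order. Secreted products stood at 32.9 and 107, 31.9 and 99.5, 15.2 and 115, and 23.1 and 121. These lists, and the bZIP and heat shock lists, were higher in each bin than in the one below it in all 4 libraries. The kinase list stayed between 7.57 and 9.86 per 10000 in all bins. No test was made across cells. The median share of mitochondrial UMIs was 3.0% in the lowest and 2.28% in the highest bin of small intestine 1, and 2.51 and 1.96% in colon 1. Median depth was 7607.5 and 8328 UMIs in the former and 8160 and 9623 in the latter, and the part of cell quality in these values was not tested.

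**Figure D5:**
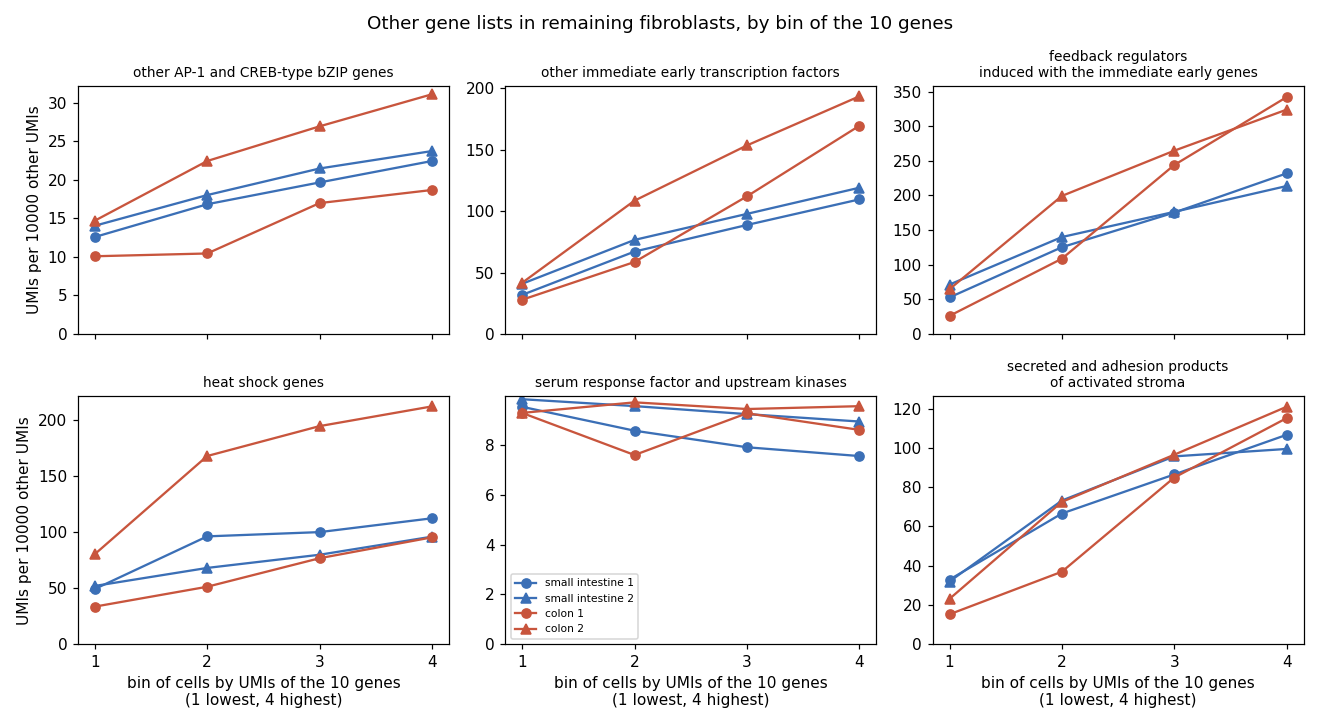
UMIs of 6 other gene lists per 10000 UMIs outside the 10 genes, in remaining FB divided into 4 bins of cells by their UMIs of the 10 genes (1 lowest, 4 highest), for each library. Lines for feedback regulators, other early factors and secreted products climb at every step in all 4 libraries, and the line for serum response factor and kinases stays between 7.57 and 9.86.

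Over 23 sums of a class in a library, the genes whose level was most like each member were named by Pearson r of log2(CPM + 10) among 3231 genes. *Ier2*, an immediate early gene itself, was first for *Fos* (0.72), *Jun* (0.73), *Atf3* (0.80) and *Egr1* (0.83). *Fos* was next like *Dusp1* (0.72) and *Vim* (0.67), *Jun* like *Btg2* (0.69) and *Egr2* (0.67), *Atf3* like *Adamts1* (0.79) and *Peli1* (0.78), and *Egr1* like *Tgfb2* (0.80) and *Ptp4a1* (0.77). *Junb* was nearest *Myc* (0.86), *Ppp1r15a* (0.83) and *Myd88* (0.82), *Jund* nearest *Isca1* (0.81), *Casp4* (0.79) and *Srsf7* (0.78), and *Nr4a1* nearest *Isca1* (0.85), *Tnfsf9* (0.84) and *Myd88* (0.84). *Fosb* stood apart with *Nktr* (0.85), *Ankrd17* (0.85) and *Jmjd1c* (0.83). *Klf2* was nearest *Smpdl3a* (0.72), *Fxyd5* (0.69) and *Cd81* (0.69), a gene of the gate for CD81+ FB, and *Klf4* nearest *Fbln2* (0.83), *Sat1* (0.83) and *Emp1* (0.80). Among the members *Junb* and *Jund* were the most alike (0.90), and *Fosb* and *Nr4a1* the least (-0.21). The sums share libraries and depth, and leaving out 1 library kept between 5 and 16 of these 30 names.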

How the data were processed

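Lamina propria cells of 2 small intestinal and 2 colonic libraries were analysed. Per the file headers, the authors had aligned reads to mm10 and counted UMIs per gene and cell barcode with Cell Ranger 3.0.2 (replicate 1) or 3.1.0 (replicate 2), and deposited the raw counts; their own analysis used Seurat 3. A 3′ or a 5′ kit was used, and which library had which is not given in the sources used here. UMIs count captured molecules of 1 transcript end, so splice forms are not resolved.

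From these counts, cells with at least 500 genes, 1000 UMIs and at most 10% mitochondrial UMIs were kept, which left 1804 to 13212 cells per library. The highest doublet scores were removed at 0.8% per 1000 barcodes (scanpy 1.11.5, Python 3.11.15), because the automatic threshold had marked 1 to 458 barcodes. Classes were gated by at least 3 detected markers and by marker UMIs per 10000 (FB list at least 80, PDGFRαhi list at least 15, CD81+ list at least 20). The FB minimum applied to CD81+ and remaining FB but not to PDGFRαhi FB, which instead had to fall outside the SMC and pericyte gates. SMC and pericytes had to lack *Pdgfra* UMIs and stay under 80 and 60 for the FB list. For endothelial cells and ICC that limit was 20 and 60. UMIs were summed per class and library where it had 20 cells, and tested with edgeR 4.0.16 (R 4.3.3), with TMM scaling and a filter on low counts, in 14 comparisons. Benjamini-Hochberg adjustment ran over all genes tested, and p-values measure only the spread between these libraries. Colon against small intestine also required a log2 change beyond 1.5. DESeq2 1.42.0 was an alternative. Intervals cover counting error only.

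The 10 genes and the 6 lists (145 genes) were chosen with earlier results of these data known. From each list the up to 3 called genes with the largest change are named, and for each of the 10 genes the 3 most like it. The values of 1 listed gene are not reported here. On simulated counts with 200 genes changed by 2 on the log2 scale, edgeR recovered 100% for colon against small intestine in FB (13820 genes), 94% for SMC against FB (11674), 100% for PDGFRαhi against remaining FB (12046) and 99.5% for replicate 2 against 1 (13820). The simulated libraries differed in depth only, with the same dispersion for every gene, and calls were scored by adjusted p alone. These shares therefore do not give the power of the real comparisons, where libraries of a group differed more. Alternatives covered scaling, filters, doublets, gate, thinning, pairing, fold limit and each library left out. Gene positions are from GENCODE vM21 and promoter windows from RefSeq.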

Additional observations from a re-analysis of the deposited data

Results flagged for a closer look

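The colonic shift differed between PDGFRαhi FB and remaining FB for 7 of the 10 genes by the class by intestine term of edgeR's quasi-likelihood test, where 7.23% of all genes were called in that direction and 12.2% in either. The difference was 1.02 ± 0.17 log2 for *Fosb*, 1.06 ± 0.14 for *Jun*, 0.83 ± 0.14 for *Junb*, 0.66 ± 0.12 for *Jund*, 0.85 ± 0.17 for *Egr1*, 0.61 ± 0.15 for *Klf2* and 0.48 ± 0.14 for *Klf4* (SE). It was positive for each of these genes under every alternative tried. In *Fosb* and *Egr1* the remaining FB themselves showed little shift, at 0.871 and 0.915 times the small intestinal level in replicates 1 and 2 for *Fosb* and 0.984 and 1.06 times for *Egr1*, against 1.93 and 1.33 times and 2.05 and 1.28 times in PDGFRαhi FB. The heat shock list was higher in colon 2 than in the other libraries in both classes, at 17670 CPM in PDGFRαhi FB and 16280 CPM in remaining FB, and in PDGFRαhi FB the SMC list stood at 10790 and 7771 CPM in small intestine against 5715 and 3153 CPM in colon, and the pericyte list at 1272 and 1088 against 238 and 228 CPM. The part of these lists in the differences was not tested.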

How the results depend on the processing

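Of 1640 values of single genes under alternatives, 1517 kept their side of the threshold, 59 became significant, 40 lost significance, 23 moved and 1 reversed. All 27 called results kept their direction and 10 were called under every alternative. For colon against small intestine in PDGFRαhi FB the count of genes called was 0, against 2 with no low-count filter, 2 by DESeq2 and 3 with the replicate number as a block. In pericytes it was 0 against 1 with the block. In SMC against FB the 5 calls became 8 after thinning and 1 with the fold limit also required. Pericytes against FB went from 3 to 1 with no filter and to 0 with the fold limit. Endothelial cells went from 2 to 4 under a stricter gate and to 1 with the fold limit. PDGFRαhi against remaining FB went from 3 to 5 by DESeq2 and to 1 with the fold limit, and CD81+ FB from 3 to 0 with it. The 4 calls of replicate 2 against 1 became 0 without the term for intestine and 1 with the fold limit, the latter chosen after seeing the data. The 7 calls of the colonic shift in PDGFRαhi FB became 3 with doublets kept. The lowest class of a gene was unchanged for 1 of 10 under the stricter gate. The cause of these changes was not tested.

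Leaving out each library in turn gave 0 to 1 calls for the intestines in PDGFRαhi FB and 0 to 1 in pericytes. It gave 1 to 9 for SMC, 1 to 4 for PDGFRαhi and 2 to 4 for CD81+ FB, 0 to 2 for the colonic shift in SMC and 5 to 9 for that in PDGFRαhi FB. *Klf4* in the colonic shift of SMC was -1.38 without small intestine replicate 2 and reversed to 1.39 without small intestine replicate 1. The lowest class was the same for 0 to 10 genes. The 0 came without colon replicate 2, the only library with at least 20 ICC. Of the genes named for likeness 5 to 16 were named again, and both of these checks were chosen after seeing the data.

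The labels do not say that a replicate number marks an experiment shared by the intestines. Libraries of the same number do share the Cell Ranger version and are alike in depth and cell number. Deviations of same-numbered libraries correlated at 0.799 in FB, 0.728 in PDGFRαhi, 0.595 in CD81+ and 0.772 in remaining FB, 0.487 in SMC and 0.4 in pericytes. Over all genes the replicate block moved calls from 68 to 872, 172 to 928, 48 to 369, 35 to 623, 13 to 322 and 2 to 76 in the same order, and DESeq2 gave 563, 543, 177, 412, 72 and 7. With no filter the counts were 292, 588, 385, 280, 76 and 5. Left-out libraries gave 0 to 432 in PDGFRαhi FB. Thinning lowered calls from 3194 to 2071 in SMC, 2543 to 1396 in pericytes, 3794 to 2201 in endothelial cells, 3339 to 1730 in PDGFRαhi FB, 1531 to 783 in CD81+ FB, 3970 to 2416 between replicates and 1571 to 755 for the colonic shift in PDGFRαhi FB.

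Not run were the pericyte comparison of intestines with 1000 genes, 5% mitochondrial UMIs or the stricter gate, and left-out libraries for endothelial cells and for replicates. Depth limits SMC of small intestine (46 and 83 cells), pericytes (21 to 63) and ICC (15 and 37).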

Other observations

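The class of endothelial cells, which the sort was meant to remove, held 342 cells in small intestine 1 and 229 in colon 1, against 1 and 13 in the replicate 2 libraries. In PDGFRαhi FB the level of *Areg* was 53.5 and 109 CPM in colon against 3.46 and 12.6 CPM in small intestine, while in remaining FB it was 15.6 and 29.9 against 32.9 and 37.3 CPM.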
